A study of Mus musculus with 8 samples.

Results

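This account follows 10 mouse genes of extraembryonic endoderm and of secreted plasma proteins: Ttr, Kng1, Afp, Apoa1, Thbd, Amn, Dab2, Gata4, Gata6 and Sox7. They were taken as all probes whose platform gene symbol is one of these names, which gave 15 of 25697 probes and 10 of 16593 named genes. All samples were E14TG2a, a line of mouse embryonic stem (ES) cells, and gene expression was measured on Illumina BeadChips with 2 arrays per group. A group called IDE2+FGF10 received 1 uM of IDE2, a small molecule inducer of definitive endoderm, for 6 days and then fibroblast growth factor 10 at 25 ng/ml for 5 days. A group called IDE2+FGF2 received 1 uM of IDE2 for 6 days and then fibroblast growth factor 2 at 500 ng/ml for 5 days. A group called IDE2 was kept in 1 uM of IDE2 for all 11 days. The ES group was undifferentiated cells kept with LIF. The 3 differentiated groups shared a medium with N2, B27 and little serum, and no group had that medium without IDE2, so effects of IDE2, of time and of the medium cannot be told apart. Both growth factor groups also lost IDE2 after 6 days, and no group lost IDE2 without receiving a growth factor. Against IDE2, effects of the growth factor and of the loss of IDE2 therefore cannot be told apart. The doses of the 2 growth factors also differ. Whether the replicates of this single line were separate cultures is not given, so each p-value rests on a spread between arrays that may be technical alone.

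Extraembryonic endoderm is the layer that covers the early mouse embryo and lines the yolk sac. GATA and SOX transcription factors specify it. Its visceral part takes up maternal proteins through an apical complex of cubilin, amnionless and megalin with the adaptor Dab2, and secretes plasma proteins that the liver later makes, such as alpha-fetoprotein, transthyretin and apolipoproteins. Its parietal part lays down a thick basement membrane and carries thrombomodulin. Several of these genes are also used elsewhere: thrombomodulin and Sox7 in endothelium, Gata4 and Gata6 in heart and gut, and Dab2 in macrophages and many epithelia.

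Between 11609 and 13422 probes were detected per array (detection p under 0.05), with 26 to 59 beads behind the brightest probe of each tested member and a standard error between beads of 3.07 to 9.48% of its signal. Precision is limited by having 2 arrays in each group. Replicates lay further apart in IDE2+FGF2 and IDE2 (pooled SD of log2 levels over all genes 0.454 and 0.496) than in IDE2+FGF10 and ES (0.241 and 0.247). The ES label fitted its markers: all 12 pluripotency genes looked at were detected on both ES arrays, and their summed normalized intensity was 46771 to 46836 in IDE2+FGF10, 78034 to 84718 in IDE2+FGF2 and 28244 to 51781 in IDE2, against 148700 to 163350 in ES. Without Dppa5a, the brightest of them, the sums were 9216.6 to 9509.4 in IDE2+FGF10, 23252 to 25064 in IDE2+FGF2 and 11505 to 11936 in IDE2, against 86968 to 99480 in ES.

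The defining genes of extraembryonic endoderm were only partly detected. Of the 10 genes, 7 passed the filter (detection p under 0.05 on at least 2 arrays) and were tested among 9915 genes, while Afp, Gata4 and Apoa1 did not pass. The probe of Afp, the fetal counterpart of albumin, was detected on 0 of 8 arrays, with log2 levels of 5.15 and 4.80 in IDE2+FGF10, 5.00 and 4.71 in IDE2+FGF2, 5.13 and 4.82 in IDE2, and 4.68 and 5.15 in ES. The probe of Gata4, a zinc finger factor of primitive endoderm and heart, was likewise detected on 0 of 8 arrays, with levels between 4.60 and 5.41. The probe of Apoa1, the main protein of high-density lipoprotein, was detected on 1 of 8 arrays, IDE2+FGF2 replicate 2, at 5.67, and its other arrays lay between 4.97 and 5.68. The lowest level of any detected probe was 5.36 to 5.79 depending on the array, so transcripts of the 3 genes below that level could not have been seen. No other probe of these 3 genes was measured, and a probe that fails to bind its transcript would read the same. Such probes may occur here, because Kng1 and Dab2 each had a probe detected on no array beside bright ones. Absence of the 3 transcripts is therefore not shown, and the members are described gene by gene.

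**Figure D1:**
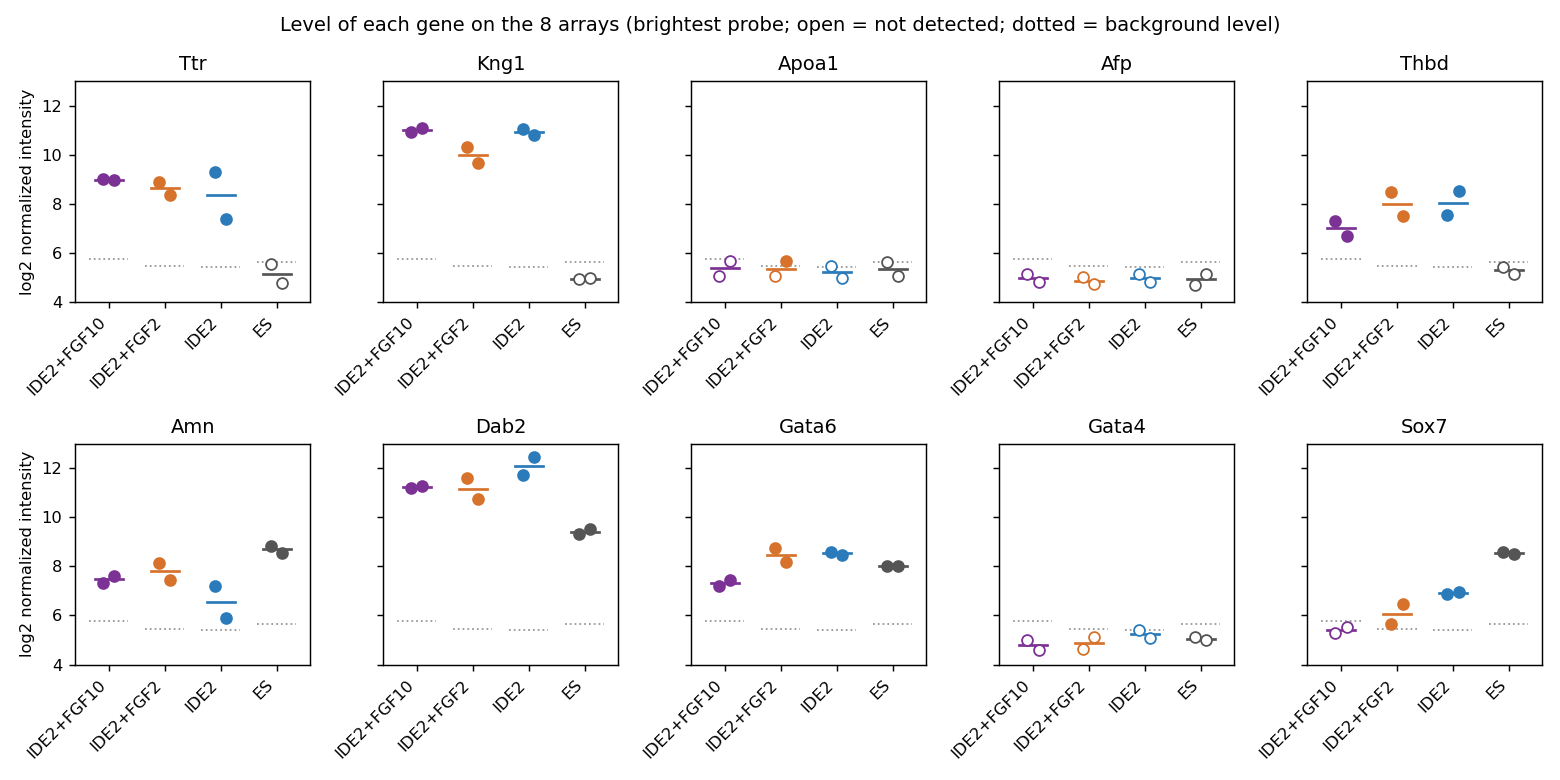
Log2 normalized intensity (y axis) of the brightest probe of each of the 10 genes on the 8 arrays, by group (x axis). Each point is an array, filled where the probe was detected and open where it was not, the bar is the mean of 2 arrays, and the dotted line is the mean background level of the group. Ttr, Kng1 and Thbd are open in ES and filled in every differentiated group, Sox7 is highest in ES and open in IDE2+FGF10, and Afp and Gata4 are open throughout.

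The secreted proteins split into Ttr and Kng1, which rose in every differentiated group, and Afp and Apoa1, which stayed near background. Ttr encodes transthyretin, a carrier of thyroxine and of the retinol-binding protein. Its log2 level was 8.99 and 8.97 in IDE2+FGF10, 8.89 and 8.36 in IDE2+FGF2, and 9.28 and 7.39 in IDE2, against 5.53 and 4.75 in ES. Every differentiated array lay above both ES arrays, and the probe was not detected in ES. In bulk RNA, a change in the number of cells that make a transcript and a change in RNA per cell cannot be told apart. Where a probe was not detected in a group, the fold is given as a lower bound, taken against the background level of that group. The bound covers only the unseen level, and not the spread between arrays or the choice of processing, so the true fold may be smaller. Ttr was at least 10.2-fold higher in IDE2+FGF10 than in ES (log2 change 3.84 ± 0.53, SE, n = 2 arrays per group, limma adjusted p = 0.00021), at least 7.95-fold higher in IDE2+FGF2 (3.48 ± 0.53, adjusted p = 6e-04) and at least 6.52-fold higher in IDE2 (3.20 ± 0.53, adjusted p = 0.00072).

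No difference in Ttr between differentiated groups passed. Its log2 difference was 0.36 in IDE2+FGF10 against IDE2+FGF2 (95% interval -0.80 to 1.52), 0.64 in IDE2+FGF10 against IDE2 (-0.52 to 1.81) and 0.29 in IDE2+FGF2 against IDE2 (-0.88 to 1.45), with limma adjusted p of 0.72, 0.43 and 0.77. The IDE2 replicates differed by more than those of the other groups (SD 1.34, against 0.55 or less). Without IDE2 replicate 1 the log2 change of Ttr in IDE2 against ES was 2.25, and without IDE2 replicate 2 it was 4.15. Over the 19 alternatives this change ran from 1.75 to 4.15. Ttr in IDE2+FGF10 against IDE2 passed only without IDE2 replicate 1 (1.59, adjusted p = 0.02).

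Kng1 rose in every differentiated group. It encodes kininogen, the plasma precursor of bradykinin. The log2 level of its brightest probe was 10.94 and 11.09 in IDE2+FGF10, 10.30 and 9.67 in IDE2+FGF2, and 11.05 and 10.78 in IDE2, against 4.92 and 4.97 in ES, where it was not detected. No differentiated array came near an ES array, and both IDE2+FGF2 arrays lay below all 4 arrays of the other differentiated groups. Kng1 was at least 41.6-fold higher in IDE2+FGF10 than in ES (log2 change 6.07 ± 0.30, SE, n = 2, limma adjusted p = 1.6e-06), at least 20.5-fold higher in IDE2+FGF2 (5.04 ± 0.30, adjusted p = 3.5e-06) and at least 39.0-fold higher in IDE2 (5.97 ± 0.30, adjusted p = 1.2e-06).

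Between the growth factors, Kng1 was 2.03-fold higher in IDE2+FGF10 than in IDE2+FGF2 without passing (log2 change 1.02 ± 0.30, limma adjusted p = 0.064). It passed in 7 of 19 alternatives, among them no background correction (0.96, adjusted p = 0.043) and the mean of probes (1.23, adjusted p = 0.022). In IDE2+FGF2 it was 1.90-fold lower than in IDE2 (-0.93 ± 0.30, adjusted p = 0.083), and IDE2+FGF10 and IDE2 differed by 0.09 (95% interval -0.56 to 0.75, adjusted p = 0.86). A second Kng1 probe gave levels of 8.68 and 8.77 in IDE2+FGF10, 7.19 and 7.36 in IDE2+FGF2, and 8.26 and 7.95 in IDE2, against 5.91 and 5.57 in ES, where it was detected on 1 of 2 arrays. When every kept probe was tested on its own, this probe was higher in IDE2+FGF10 than in IDE2+FGF2 (2.73-fold, log2 change 1.45 ± 0.28, adjusted p = 0.018), and it also rose against ES in all 3 groups (2.91-fold to 7.93-fold). A further probe of the same transcript was detected on 0 of 8 arrays, at 4.51 to 4.82. Kng2, a close relative of Kng1 whose transcript may share probe targets with it, was at least 3.98-fold, 2.99-fold and 4.50-fold higher than in ES in IDE2+FGF10, IDE2+FGF2 and IDE2 (adjusted p of 6.3e-05, 3e-04 and 4.3e-05), so the part of each gene in the signal is uncertain.

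**Figure D2:**
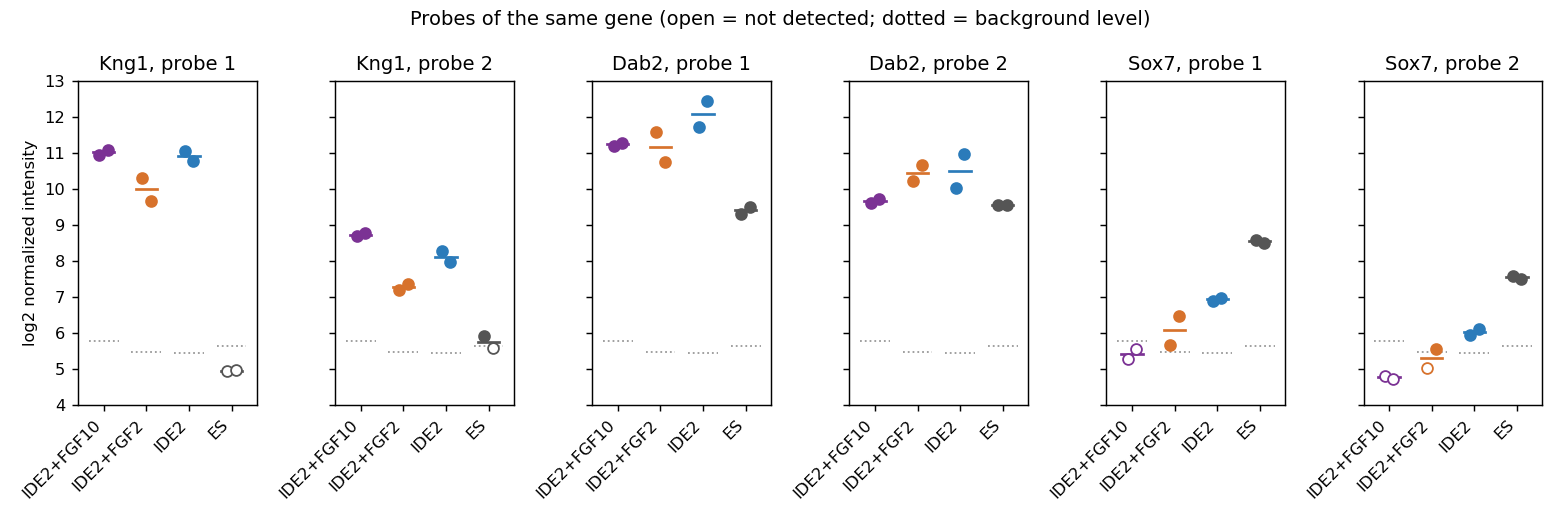
Log2 normalized intensity (y axis) by group (x axis) for the 2 brightest probes each of Kng1, Dab2 and Sox7. Points are arrays (open where not detected), bars are means of 2 arrays and dotted lines are background levels. Both Kng1 probes are lower in IDE2+FGF2 than in IDE2+FGF10, both Sox7 probes are highest in ES and open on both arrays of IDE2+FGF10, and the second Dab2 probe is nearly level between IDE2+FGF10 and ES.

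Among the surface and uptake genes, Thbd and Dab2 rose and Amn was lower than in ES. Thbd encodes thrombomodulin, the receptor that turns thrombin into an activator of protein C. Its log2 level was 7.29 and 6.69 in IDE2+FGF10, 8.48 and 7.50 in IDE2+FGF2, and 7.54 and 8.50 in IDE2, against 5.42 and 5.13 in ES, where it was not detected. All differentiated arrays lay above ES, and both IDE2+FGF10 arrays lay below the 4 arrays of IDE2+FGF2 and IDE2. Thbd was at least 2.56-fold higher in IDE2+FGF10 than in ES (log2 change 1.71 ± 0.42, SE, n = 2, limma adjusted p = 0.0068), at least 5.13-fold higher in IDE2+FGF2 (2.71 ± 0.42, adjusted p = 0.00069) and at least 5.24-fold higher in IDE2 (2.74 ± 0.42, adjusted p = 0.00045).

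The call of Thbd in IDE2+FGF10 against ES ended without background correction (log2 change 0.73, limma adjusted p = 0.079), with the second deposited table (0.75, 0.074), without IDE2+FGF10 replicate 1 (1.42, 0.064) and without ES replicate 2 (1.57, 0.054). Thbd was 2.00-fold lower in IDE2+FGF10 than in IDE2+FGF2 (95% interval of the log2 change -1.92 to -0.08, adjusted p = 0.16) and 2.04-fold lower than in IDE2 (-1.03 ± 0.42, adjusted p = 0.12). Neither passed, although both did with median scaling (-1.44 and -1.37, adjusted p of 0.036 and 0.039). The groups IDE2+FGF2 and IDE2 differed by -0.03 (95% interval -0.95 to 0.89, adjusted p = 0.97).

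Amn encodes amnionless, the membrane partner that carries cubilin to the cell surface. Its log2 level was 7.32 and 7.62 in IDE2+FGF10, 8.15 and 7.45 in IDE2+FGF2, and 7.22 and 5.92 in IDE2, against 8.83 and 8.56 in ES. Every ES array lay above every differentiated array, and IDE2 replicate 2 was the lowest of all. Amn fell 2.33-fold in IDE2+FGF10 against ES (log2 change -1.22 ± 0.42, limma adjusted p = 0.035) and 4.37-fold in IDE2 (-2.13 ± 0.42, adjusted p = 0.0022), and was 1.86-fold lower in IDE2+FGF2 without passing (-0.90 ± 0.42, 95% interval -1.82 to 0.03, adjusted p = 0.12). The fall in IDE2 was -2.78 without IDE2 replicate 1 and -1.48 without IDE2 replicate 2. The call in IDE2+FGF10 ended with no detection filter (adjusted p = 0.077) and on leaving out any of its 4 arrays (adjusted p of 0.079 to 0.17). Amn was 2.35-fold higher in IDE2+FGF2 than in IDE2 (adjusted p = 0.096) and 1.87-fold higher in IDE2+FGF10 than in IDE2 (adjusted p = 0.16). Both passed without IDE2 replicate 1 (log2 changes of 1.88 and 1.56, adjusted p of 0.013 and 0.015), and the first also with median scaling (1.33, adjusted p = 0.043).

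Dab2 encodes an endocytic adaptor that links megalin and other receptors to clathrin. The log2 level of its brightest probe was 11.19 and 11.28 in IDE2+FGF10, 11.60 and 10.74 in IDE2+FGF2, and 11.73 and 12.46 in IDE2, against 9.31 and 9.51 in ES. The probe was detected on all 8 arrays, and IDE2 was above the other differentiated groups on both arrays. Dab2 rose 3.55-fold in IDE2+FGF10 against ES (log2 change 1.83 ± 0.36, limma adjusted p = 0.002), 3.38-fold in IDE2+FGF2 (1.76 ± 0.36, adjusted p = 0.0035) and 6.43-fold in IDE2 (2.68 ± 0.36, adjusted p = 0.00019). It was 1.81-fold lower in IDE2+FGF10 than in IDE2 (adjusted p = 0.13) and 1.90-fold lower in IDE2+FGF2 than in IDE2 (adjusted p = 0.13), and the growth factor groups differed by 0.07 (95% interval -0.72 to 0.86). Without IDE2 replicate 1 both falls against IDE2 passed (-1.22 and -1.29, adjusted p of 0.043 and 0.045).

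A second Dab2 probe, annotated to another transcript of the gene, gave a weaker picture. Its log2 level was 9.62 and 9.71 in IDE2+FGF10, 10.22 and 10.67 in IDE2+FGF2, and 10.02 and 10.96 in IDE2, against 9.55 and 9.56 in ES. Tested on its own, it was 1.08-fold higher in IDE2+FGF10 than in ES (limma adjusted p = 0.83), 1.85-fold higher in IDE2+FGF2 (adjusted p = 0.07) and 1.91-fold higher in IDE2 (adjusted p = 0.048). The difference between the probes was not tested. With the mean of both probes, the log2 change of Dab2 was 0.97 in IDE2+FGF10 and 1.81 in IDE2 against ES (adjusted p of 0.027 and 0.0012). A further probe, of that other transcript, was detected on 0 of 8 arrays, at 4.59 to 4.83.

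Promoter windows (GRCm38.p6, 250 bases before to 50 after each annotated start) came from a RefSeq table. Of the 10 members, 4 had a window among those kept, namely Amn, Dab2 with 2 starts, Afp and Apoa1. Member windows on a particular chromosome were left out, so this count does not show what the table holds for the other members. The windows of Dab2 are shown because its probes belong to different transcripts, that of Amn because this uptake gene fell where Dab2 rose, and that of Afp because no array detected it. Capitals mark matches, on either strand, to the GATA core (AGATAA or TGATAA), the TATA box (TATAAA), the GC box (GGGCGG) or the HNF1 motif. No matches overlapped.
Dab2, chr15:6299539-6299838, plus strand: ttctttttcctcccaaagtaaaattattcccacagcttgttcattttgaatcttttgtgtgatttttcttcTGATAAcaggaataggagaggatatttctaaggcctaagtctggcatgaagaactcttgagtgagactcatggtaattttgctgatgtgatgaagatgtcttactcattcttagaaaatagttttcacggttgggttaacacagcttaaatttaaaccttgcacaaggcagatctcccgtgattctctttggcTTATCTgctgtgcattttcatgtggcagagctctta
Dab2, chr15:6386498-6386797, plus strand: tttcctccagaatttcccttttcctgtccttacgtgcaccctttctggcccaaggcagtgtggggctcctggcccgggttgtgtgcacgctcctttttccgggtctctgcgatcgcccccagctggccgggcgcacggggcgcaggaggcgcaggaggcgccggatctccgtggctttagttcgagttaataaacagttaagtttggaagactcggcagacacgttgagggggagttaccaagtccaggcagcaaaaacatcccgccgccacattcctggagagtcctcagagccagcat
Amn, chr12:111270846-111271145, plus strand: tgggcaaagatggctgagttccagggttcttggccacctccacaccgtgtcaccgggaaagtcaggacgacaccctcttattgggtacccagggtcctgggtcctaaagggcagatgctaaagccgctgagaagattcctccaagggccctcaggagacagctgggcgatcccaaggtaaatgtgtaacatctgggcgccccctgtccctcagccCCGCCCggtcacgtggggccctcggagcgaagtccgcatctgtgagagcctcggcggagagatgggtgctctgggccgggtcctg
Afp, chr5:90490464-90490763, plus strand: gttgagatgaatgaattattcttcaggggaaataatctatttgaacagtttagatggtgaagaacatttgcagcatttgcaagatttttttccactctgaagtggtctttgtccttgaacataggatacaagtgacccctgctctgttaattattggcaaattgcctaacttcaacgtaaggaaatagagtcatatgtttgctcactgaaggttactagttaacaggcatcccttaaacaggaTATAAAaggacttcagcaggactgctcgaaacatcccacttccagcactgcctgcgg

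The first Dab2 window held the GATA core at positions -179 and 15 (position 1 is the start, on the strand of the gene), whereas the second Dab2 window held none of the motifs searched. Base composition also differed, with 37.7% G and C in the first Dab2 window and 59.3% in the second. The Amn window (62.3% G and C) held a GC box at position -35. The Afp window (40% G and C) held the TATA box letters at position -7 from the annotated start. The Apoa1 window, not shown, held the GATA core at position 16. Of 32851 promoter windows of the same length, 18.6% held the GATA core, 13.6% the TATA box, 35.7% the GC box and 0.0609% the HNF1 motif. A match is a description of the letters and not of a bound site. Sites that depart from these exact letters are not marked, so a window without a match, as that of Afp for HNF1, may still hold one.

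Among the transcription factors, Sox7 fell against ES in all 3 groups, while Gata6 differed between the differentiated groups. Sox7 encodes an SRY-box factor of primitive endoderm and endothelium. The log2 level of its brighter probe was 5.27 and 5.54 in IDE2+FGF10, 5.67 and 6.46 in IDE2+FGF2, and 6.89 and 6.96 in IDE2, against 8.57 and 8.50 in ES. The groups did not overlap, and the probe was not detected in IDE2+FGF10. Sox7 was at least 6.88-fold lower in IDE2+FGF10 than in ES (log2 change -3.14 ± 0.32, SE, n = 2, limma adjusted p = 3.4e-05), 5.56-fold lower in IDE2+FGF2 (-2.47 ± 0.32, adjusted p = 0.00022) and 3.06-fold lower in IDE2 (-1.61 ± 0.32, adjusted p = 0.0021).

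Sox7 was also at least 2.25-fold lower in IDE2+FGF10 than in IDE2 (log2 change -1.52 ± 0.32, limma adjusted p = 0.015). This call ended when only the arrays of these groups were fitted (adjusted p = 0.087) and without IDE2+FGF10 replicate 1 (0.12), IDE2+FGF10 replicate 2 (0.096) or IDE2 replicate 2 (0.083). Because Sox7 was not detected in IDE2+FGF10, it can only be given as at least 1.24-fold lower there than in IDE2+FGF2, a difference that did not pass (adjusted p = 0.22; 0.048 without IDE2+FGF2 replicate 1). Between IDE2+FGF2 and IDE2 the log2 difference was -0.86 (95% interval -1.56 to -0.17, adjusted p = 0.11). The second Sox7 probe had mean log2 levels of 4.76, 5.29 and 6.01 in IDE2+FGF10, IDE2+FGF2 and IDE2, against 7.54 in ES. It was detected on 0 of 2 arrays in IDE2+FGF10 and 1 of 2 in IDE2+FGF2, and both of these means lay under the background level, so they have no order. Tested on its own it fell against ES in all 3 groups (adjusted p of 4e-05, 0.00024 and 0.0017) and in IDE2+FGF10 against IDE2 (adjusted p = 0.022).

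Gata6 encodes a zinc finger factor required for primitive endoderm. Its log2 level was 7.21 and 7.46 in IDE2+FGF10, 8.74 and 8.17 in IDE2+FGF2, and 8.58 and 8.47 in IDE2, against 8.03 and 8.03 in ES. The probe was detected on all 8 arrays, and IDE2+FGF10 lay below every other array. Gata6 fell 2.18-fold in IDE2+FGF10 against IDE2+FGF2 (log2 change -1.12 ± 0.29, limma adjusted p = 0.044) and 2.29-fold in IDE2+FGF10 against IDE2 (-1.19 ± 0.29, adjusted p = 0.025). Against ES it was 1.62-fold lower in IDE2+FGF10 (-0.69 ± 0.29, adjusted p = 0.074), 1.34-fold higher in IDE2+FGF2 (adjusted p = 0.29) and 1.41-fold higher in IDE2 (adjusted p = 0.19), and none of these passed. The difference in IDE2+FGF10 against ES passed in 6 of 19 alternatives (with median scaling -1.02, adjusted p = 0.017).

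Both calls of Gata6 ended under several alternatives. The call against IDE2+FGF2 was kept in 11 of 19 alternatives and ended with only the arrays of these groups (limma adjusted p = 0.082), with the replicate number as a block (0.057) and on leaving out either array of IDE2+FGF10 (0.29 and 0.21), of IDE2+FGF2 (0.086 and 0.055) or of ES (0.097 each). The call against IDE2 was kept in 13 of 19 and ended with only the arrays of these groups (0.091) and without IDE2+FGF10 replicate 1 (0.19), IDE2+FGF10 replicate 2 (0.12), IDE2 replicate 2 (0.086) or either ES array (0.055 each).

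**Figure D3:**
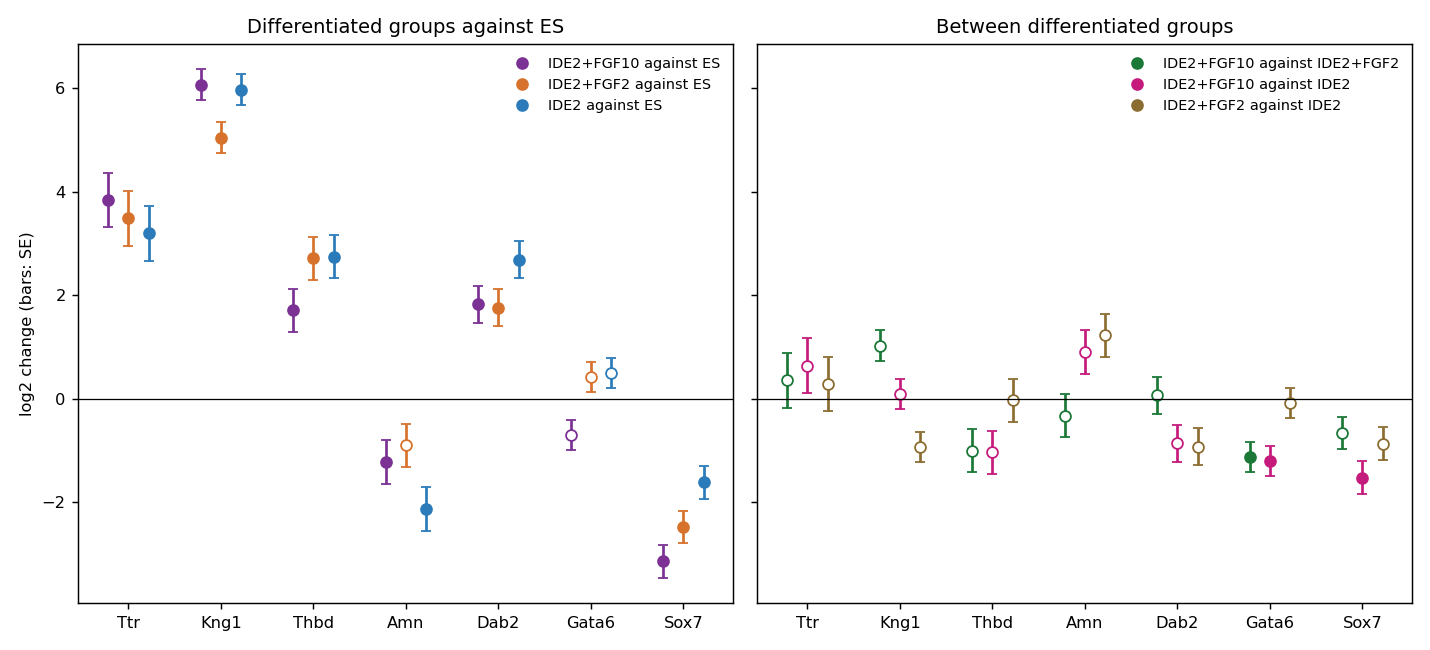
Log2 change (y axis) of the 7 tested genes (x axis) with its standard error from the fit, for the differentiated groups against ES (left) and between differentiated groups (right). Filled points passed at an adjusted p under 0.05. Against ES, Ttr, Kng1, Thbd and Dab2 lie above 0 in all 3 groups and Sox7 below 0, and on the right only Sox7 and Gata6 have filled points.

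Counted over the 7 tested members, 4 were called higher and 2 lower in IDE2+FGF10 against ES, where 22.2% and 22.8% of all 9915 tested genes were called higher and lower by limma. In IDE2+FGF2 against ES, 4 were called higher and 1 lower (17.8% and 16.8% of all genes), and in IDE2 against ES 4 and 2 (23.1% and 22.2%). Ttr, Kng1 and Thbd were not detected in ES and passed the filter only through the differentiated groups, so these counts give no support of their own. The median log2 change of the 7 was 1.71, 1.76 and 2.68 in IDE2+FGF10, IDE2+FGF2 and IDE2, beside -0.01 for all genes in each comparison. That median leaves out Afp, Gata4 and Apoa1, which stayed near background in every group, so it too depends on the filter and gives no support. These comparisons share the ES arrays. All 7 had replicates that did not overlap between groups in each of them, as had 81.5%, 70% and 72.9% of all genes.

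Between differentiated groups fewer members were called. Against IDE2+FGF2, IDE2+FGF10 had 0 members called higher and 1 lower (2.6% and 4.71% of all genes), and 5 of 7 did not overlap (59.7% of all genes). Against IDE2, IDE2+FGF10 had 0 called higher and 2 lower (4.13% and 9.76%), and 5 of 7 did not overlap (65.5%). In IDE2+FGF2 against IDE2, limma called 0 higher and 0 lower (3.7% and 3.8%), and 4 of 7 did not overlap (48.2%). Amn, Dab2, Kng1 and Sox7, 4 in all, had an unadjusted p under 0.05 in that last comparison.

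Related plasma proteins moved in both directions. For this and the later lists, the shares of all genes called are those given above for the same comparisons. Of 34 further plasma protein genes, 31 had a probe and 12 passed the filter. Against ES, 4 rose and 3 fell in IDE2+FGF10, in IDE2+FGF2 5 rose and 2 fell, and in IDE2 4 rose and 4 fell. The median log2 change of the 12 was 0.53, 0.61 and -0.14 in IDE2+FGF10, IDE2+FGF2 and IDE2. Serpinf1, which encodes pigment epithelium-derived factor, was at least 32.2-fold, 43.8-fold and 34.4-fold higher than in ES (limma adjusted p of 3.3e-06 or less). Clu, which encodes the secreted chaperone clusterin, rose 6.34-fold, 10.2-fold and 4.57-fold (adjusted p of 1e-04 or less). Trf, the iron carrier transferrin, was at least 6.85-fold lower in IDE2+FGF10, 7.43-fold lower in IDE2+FGF2 and at least 8.64-fold lower in IDE2 (adjusted p of 7.1e-05 or less), and Ahsg, fetuin A, was at least 2.51-fold, 3.11-fold and 3.17-fold lower. Apoa2 was called only in IDE2+FGF2 among the comparisons with ES (at least 1.71-fold higher, adjusted p = 0.0086). Alb, Fgb, Fgg, Apoh and Ambp, typical products of liver and yolk sac, were detected on no array of any group.

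Other regulators of extraembryonic endoderm showed no common direction. Of 10 listed factors 8 had a probe and 5 passed the filter, of which 0 rose and 2 fell in IDE2+FGF10 against ES, 0 and 0 moved in IDE2+FGF2, and 1 rose and 1 fell in IDE2. Their median log2 change was -0.08, -0.15 and -0.53. Among all tested genes, 22.2% were called higher and 22.8% lower in IDE2+FGF10, and 17.8% and 16.8% in IDE2+FGF2. In IDE2 the shares were 23.1% and 22.2%, so counts over 5 factors say little. The gene that rose was Sox17, an endoderm factor of definitive and primitive endoderm alike (3.70-fold in IDE2, limma adjusted p = 0.00099), which was lower in IDE2+FGF10 than in IDE2 (log2 change -1.32, adjusted p = 0.026). Hhex, a homeobox factor of anterior visceral endoderm, fell 4.48-fold in IDE2+FGF10 and 4.07-fold in IDE2 (adjusted p of 1e-04 and 0.00016) and was 1.12-fold lower in IDE2+FGF2 (adjusted p = 0.68). Foxa1, Foxa2 and Gata5 were detected on no array. Among 8 tested visceral endoderm products, 3 rose and 0 fell in IDE2+FGF10, 2 and 0 in IDE2+FGF2 and 2 and 1 in IDE2 (medians of -0.04, 0.06 and 0.04). The tight junction gene Cldn6 rose 5.48-fold, 2.38-fold and 3.19-fold, and the scaffold gene Pdzk1 at least 7.95-fold, 14.5-fold and 5.31-fold.

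Genes listed for parietal endoderm and basement membrane mostly rose. Of 11 tested, 8 rose in IDE2+FGF10 against ES, 7 in IDE2+FGF2 and 8 in IDE2, and 0 fell in any of them. Their median log2 change was 1.12, 1.06 and 2.12, beside -0.01 over all genes. The shares of all genes called higher were 22.2%, 17.8% and 23.1% in these comparisons. Col4a2, which encodes a chain of type IV collagen, rose 7.14-fold, 8.57-fold and 6.50-fold (limma adjusted p of 0.00014 or less), and Fst, the activin antagonist follistatin, 7.39-fold, 1.81-fold and 11.2-fold. Fst was also higher in IDE2+FGF10 than in IDE2+FGF2 (log2 change 2.03, adjusted p = 0.0036). Mesenchyme makes many of these proteins too. The summed intensity of 10 mesenchyme genes was 33452 to 35999 in IDE2+FGF10, 39323 to 47536 in IDE2+FGF2 and 45890 to 46490 in IDE2, against 1718.8 to 1782.6 in ES, with Postn detected on no array. Most of that sum in the differentiated groups was Acta2, smooth muscle actin. Without Acta2 the sums were 3571.4 to 3619.7 in IDE2+FGF10, 5096.4 to 5220.4 in IDE2+FGF2 and 4203 to 4804 in IDE2, against 1512.8 to 1590.2 in ES. Of the 10 genes, 6 rose and 1 fell in IDE2+FGF10 against ES, 6 and 1 in IDE2+FGF2, and 7 and 1 in IDE2. Their part in the values of the parietal endoderm and basement membrane genes was not tested.

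No tested partner of the uptake complex was called higher than in ES. Of 12 listed genes 8 had a probe and were tested, with 0 rises and 2 falls in IDE2+FGF10 against ES, 0 and 1 in IDE2+FGF2 and 0 and 4 in IDE2. Their median log2 change was -0.11, -0.30 and -0.64 in IDE2+FGF10, IDE2+FGF2 and IDE2. Since 22.2%, 17.8% and 23.1% of all genes were called higher in these comparisons, 0 rises among 8 genes says little. Ap2b1, which encodes a subunit of the clathrin adaptor AP-2, fell 3.48-fold, 2.50-fold and 3.44-fold (limma adjusted p of 0.0027, 0.018 and 0.003). Lrp2, which encodes megalin, stayed close to background, with log2 changes of -0.22, -0.42 and 0.40 that did not pass (adjusted p of 0.56, 0.29 and 0.29). Of the coagulation genes around thrombomodulin, 4 of 13 with a probe were tested, with 0 rises and 1 fall in IDE2+FGF10, 1 and 2 in IDE2+FGF2 and 1 and 2 in IDE2 (medians of -0.52, -0.37 and -0.16). Tfpi, an inhibitor of tissue factor, fell 2.80-fold, 2.02-fold and 2.09-fold (adjusted p of 0.003, 0.028 and 0.018), and Proc, the substrate of the thrombin and thrombomodulin pair, fell in IDE2+FGF2 and IDE2 (adjusted p of 0.03 and 0.021).

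**Figure D4:**
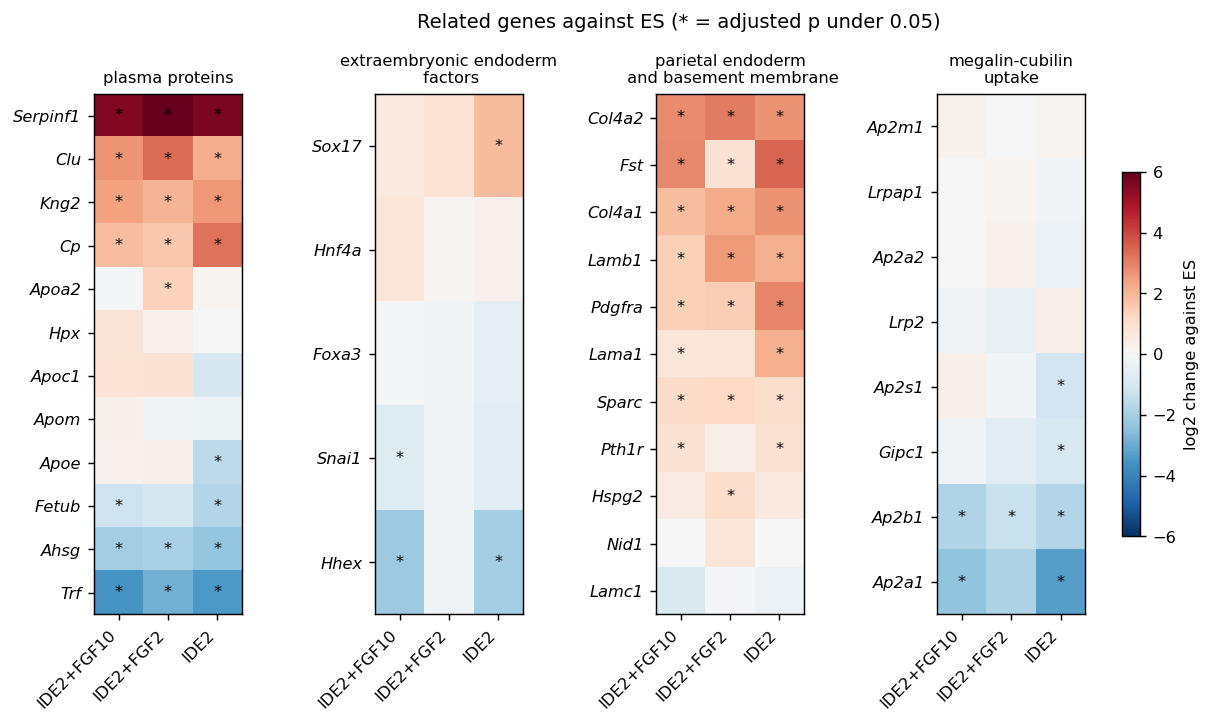
Log2 change against ES (colour, red higher and blue lower) of tested genes of 4 related lists (rows) in IDE2+FGF10, IDE2+FGF2 and IDE2 (columns), with an asterisk where the adjusted p was under 0.05. Plasma proteins run from Serpinf1, at least 32.2-fold higher, to Trf, lower in all 3 groups. The genes of parietal endoderm and basement membrane have no called fall.

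Markers of other cell types that use these genes were measured beside them. For endothelium, which uses Thbd and Sox7, 10 of 14 genes with a probe were tested, and their summed intensity was 3240.1 to 3320 in IDE2+FGF10, 5528.9 to 5621.6 in IDE2+FGF2 and 1733 to 2868 in IDE2, against 7527.8 to 7561.2 in ES. Cdh5, Tie1 and Cd34, defining genes of that lineage, were detected on no array. Against ES, 1 endothelial gene was called higher and 6 lower in IDE2+FGF10, 3 and 4 in IDE2+FGF2, and 1 and 8 in IDE2. Flt1, a receptor of vascular endothelial growth factor, was at least 11.7-fold, 13.6-fold and 14.9-fold higher than in ES. Between the differentiated groups, 0 endothelial genes were called higher and 5 lower in IDE2+FGF10 against IDE2+FGF2, 1 and 0 in IDE2+FGF10 against IDE2, and 5 and 0 in IDE2+FGF2 against IDE2. Emcn, the endothelial surface protein endomucin, had log2 levels of 4.68 and 4.62 in IDE2+FGF10, 9.13 and 9.19 in IDE2+FGF2 and 4.69 and 4.54 in IDE2, against 4.75 and 5.02 in ES. It was detected in IDE2+FGF2 alone among the 4 groups, and was at least 13.3-fold higher there than in IDE2 (limma adjusted p = 2.2e-05).

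For heart, which uses Gata6, 8 of 13 genes with a probe were tested, and Tnni3, Myl2 and Tbx5 were detected on no array. Against ES, 2 rose and 2 fell in IDE2+FGF10, 1 and 2 in IDE2+FGF2, and 1 and 2 in IDE2. Their sums were 1064 to 1093.6 in IDE2+FGF10, 2213.6 to 2228 in IDE2+FGF2 and 868.51 to 1233.1 in IDE2, against 451.29 to 529.08 in ES. Actc1, cardiac alpha-actin, made most of the sum in the differentiated groups, and was at least 15.2-fold, 37.3-fold and 14.4-fold higher in IDE2+FGF10, IDE2+FGF2 and IDE2 than in ES, where it was not detected. Without Actc1 the sums were 317.3 to 332.69, 340.23 to 395.87 and 310.87 to 316.47 in these groups, against 419.01 to 504.57 in ES.

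For trophoblast, which also carries thrombomodulin, 6 of 9 genes with a probe were tested, and Elf5 and Tpbpa were detected on no array. Against ES, 3 rose and 2 fell in IDE2+FGF10, 3 and 0 in IDE2+FGF2, and 3 and 1 in IDE2. The 2 falls in IDE2+FGF10 were Cdx2 (log2 levels of 5.14 and 5.36, against 6.58 and 6.23 in ES) and Eomes. Eomes lay at 4.50 and 4.72, against 5.41 and 6.14 in ES, and neither gene was detected in IDE2+FGF10. Krt7, an epithelial keratin, was at least 30.3-fold, 12.8-fold and 14.1-fold higher in IDE2+FGF10, IDE2+FGF2 and IDE2 than in ES, and Plac1, a placental gene, at least 12.5-fold, 3.80-fold and 6.13-fold. The sums were 5110.3 to 5379, 2640.3 to 2667 and 2849.1 to 2863.7 in these groups, against 1011.3 to 1170.1 in ES.

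For macrophages, which use Dab2, 2 of 9 genes with a probe were tested, and Ptprc, Tyrobp, Fcer1g, Itgam and Spi1 were detected on no array. The 2 genes were Laptm5, of lysosomal membranes, and Aif1. Laptm5 fell in IDE2+FGF10, IDE2+FGF2 and IDE2 against ES (log2 changes of -3.14, -2.54 and -3.70, limma adjusted p of 9e-05 or less), and it made nearly the whole of their sum (1390.8 to 1509, 1810.6 to 2493.2 and 949.63 to 995.79, against 12037 to 12090 in ES). Aif1 alone was at 79.283 to 87.879, 42.643 to 64.816 and 45.038 to 47.054, against 38.916 to 55.393 in ES. It was called higher in IDE2+FGF10 against ES, with log2 levels of 6.46 and 6.31 against 5.28 and 5.79, close to background. In IDE2+FGF2 and IDE2 against ES it was not called. Of 10 tested definitive endoderm genes, some of which extraembryonic endoderm shares, 5 rose and 2 fell in IDE2+FGF10 against ES. In IDE2+FGF2 3 rose and 0 fell, and in IDE2 7 and 1. Foxa2, Mixl1 and Cer1 were detected on no array. The median log2 change of the 10 was 0.83, 0.68 and 1.96 in IDE2+FGF10, IDE2+FGF2 and IDE2. Log2 levels of Krt18 were 13.7 and 13.6, 12.7 and 13.1, and 12.9 and 12.7 in these groups, against 9.1 and 9.0 in ES. Krt8 was at 14.0 and 14.1 in IDE2, against 10.7 and 10.8 in ES. Trh fell in IDE2+FGF10 (9.57 and 9.70, against 12.66 and 12.55 in ES). The part of these cell types in the member values was not tested.

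The members did not share a single pattern over the 8 arrays, since Ttr, Kng1, Thbd and Dab2 rose against ES and Sox7 fell. Likeness was taken as the root mean square difference of log2 levels after subtracting the mean of each gene, over all 9915 tested genes, as a description of arrays that share the split between ES and the rest. The nearest genes to Ttr were Myl3 (0.28) and Insl6 (0.38), and both of these also lay lower on IDE2 replicate 2 than on IDE2 replicate 1. The nearest to Kng1 were Tmprss2 (0.36) and Tsc22d3 (0.39), and the nearest to Thbd were Fndc3c1 and Klhl13 (0.26 each). Amn lay nearest to Ggct (0.22) and Etv2 (0.23), and Sox7 to Tfrc (0.25) and Topors (0.30). Dab2 lay nearest to Zfhx3 and Ist1 (0.13 each), and Gata6 to Ankle2 (0.12) and Cyld (0.15). No member was among the 2 nearest genes of another member. With only 2 genes kept of 9915, and a measure that depends on the size of a change, this says little about likeness between members.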

How the data were processed

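RNA of E14TG2a cells was labelled and measured on 8 Illumina BeadChips, 2 in each of 4 groups. The deposited intensities are bead means that, per the file headers, had no normalization and no subtraction of background. Beside them the authors deposited, per the file headers, a bead count, a standard error between beads and a detection p-value for every probe. BeadStudio is named in the submitters' processing notes with no version. A second deposited table of intensities, nearly alike in distribution on all arrays and of unstated method, served as an alternative.

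Probes were named from the platform annotation (23978 of 25697; 1719 had no name here). Intensities were processed by the neqc function (limma 3.58.1, R 4.3.3) (offset 16, with quantile normalization and log2 values). The filter kept probes detected (p under 0.05) on 2 or more arrays, and a gene was its probe with the highest mean (9915 genes). All 8 arrays entered a single limma fit with a mean per group, giving 6 comparisons with moderated t tests adjusted by Benjamini-Hochberg over all 9915 genes (called under 0.05). Errors of levels are SDs of 2 arrays, those of changes are standard errors of the fit. The fit was tested on simulated data with independent normal noise and an equal spread in all groups. That test does not cover the unequal spreads between groups seen here. Named genes were the members, for each list the 2 largest rises and falls that passed, and for each member the 2 genes with the most similar pattern. The members and lists were chosen with earlier results of these data known. Samples with the same replicate number did not deviate together (correlations of deviations across genes of -0.067 to 0.012 over 6 pairs of groups), so the number was not taken as a pairing.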

Additional observations from a re-analysis of the deposited data

How the results depend on the processing

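Of 19 alternatives, values are given here where they moved a count by over 1.5 times or where another scaling moved the split of higher and lower calls by over 10 percentage points. Over the 20 calls of members, 353 of 380 alternative values were still called, and 0 values that were called in either setting changed sign; of 418 alternative values of the 22 uncalled comparisons of members, 29 were called. Without background correction, log2 changes of dim genes shrank (Kng1 in IDE2+FGF10 against ES 4.10, beside 6.07). Median scaling shifted the median of all genes by -0.21 in IDE2+FGF10 against ES (1589 higher and 2889 lower, beside 2206 and 2265), by -0.18 in IDE2+FGF10 against IDE2 (194 and 1410, beside 409 and 968) and by -0.27 in IDE2+FGF10 against IDE2+FGF2 (136 and 1237, beside 258 and 467). In IDE2+FGF2 against IDE2 the split with median scaling was 515 higher and 311 lower, beside 367 and 377.

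Members called in IDE2+FGF10 against IDE2+FGF2 numbered 1, and 2 without background correction, with median scaling, with the second deposited table or with the mean of probes, 3 with replicate 2 of both IDE2 and IDE2+FGF2 removed, and 0 with only the arrays of these groups or with the replicate number as a block (Gata6, adjusted p = 0.057). In IDE2+FGF2 against IDE2 they numbered 0, and 1 with median scaling (Amn). For IDE2+FGF10 against IDE2 the number was 2, and 0 with only the arrays of these groups. Leaving out an array gave 0 to 2, 0 to 2 and 0 to 6 members in these comparisons, and 4 to 7, 5 to 6 and 6 to 6 in IDE2+FGF10, IDE2+FGF2 and IDE2 against ES.

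Genes called numbered 3423 in IDE2+FGF2 against ES, and 5213 with both of those arrays removed. In IDE2+FGF2 against IDE2 they numbered 744, with 489 without a filter, 254 with only these groups, 73 with array weights and 169 with both of those arrays removed. For IDE2+FGF10 against IDE2 there were 1377, with 898 with array weights and 0 by limma with only these groups (2828 at an unadjusted p under 0.05). For IDE2+FGF10 against IDE2+FGF2 there were 725, with 1373 with median scaling, 382 with only these groups and 2061 with both of those arrays removed. Leaving out an array gave 2883 to 5155, 1819 to 4150 and 2811 to 4893 genes in IDE2+FGF10, IDE2+FGF2 and IDE2 against ES, 68 to 1484 in IDE2+FGF10 against IDE2+FGF2, 1 to 3267 in IDE2+FGF10 against IDE2 and 102 to 2422 in IDE2+FGF2 against IDE2. Leaving out IDE2 replicate 1 also evened the split in IDE2+FGF10 against IDE2 (1530 higher and 1737 lower), as did leaving out IDE2+FGF2 replicate 1 in IDE2+FGF10 against IDE2+FGF2 (515 and 533). The causes were not tested. With the replicate block 665 genes were called in IDE2+FGF10 against IDE2+FGF2, and it ended no other member call. A slide block was not run because the file headers name no slides. Afp, Gata4 and Apoa1 are limited by signal over background and by having no other probe.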
